A study of Mus musculus with 6 samples.

Results

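The 10 genes described here encode the ion channels that sperm use to control flagellar beating. They are Catsper1, Catsper2, Catsper3, Catsper4, Catsperb, Catsperd, Catsperg1 and Catsperg2, which encode subunits of the calcium channel CatSper, and Kcnu1 and Lrrc52, which encode the sperm potassium channel and its partner. They were chosen by gene symbol, and all 10 were found among the 24411 genes of the deposited files. RNA was measured by sequencing of testes from age-matched C57BL/6 mice, a standard inbred strain, in 3 libraries from animals of genotype MRP5-/- and MRP9-/- (labelled DKO here) and 3 from animals of genotype Wildtype (labelled WT). The RefSeq gene table lists MRP5 and MRP9 as synonyms of Abcc5 and Abcc12, which encode membrane transporters of the ABCC family. The age of the animals and the design of both alleles are not given in the sources used here, and replicate numbers only name libraries.

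CatSper is a calcium channel found only in the sperm tail, where it opens as the cell interior becomes alkaline and drives the vigorous, asymmetric beat called hyperactivation. Its pore is built from CATSPER1, CATSPER2, CATSPER3 and CATSPER4, and CATSPERB, CATSPERG, CATSPERD and CATSPERE form a canopy outside the membrane. KCNU1, also called SLO3, is a potassium channel related to the BK channel, and LRRC52 is its auxiliary subunit. It hyperpolarizes the sperm membrane during capacitation, the maturation in the female tract that enables fertilization. The genes are transcribed in meiotic and post-meiotic germ cells, so their transcripts can be measured in the testis.

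The libraries labelled DKO held 42673615 to 67131103 expected counts (fragments assigned to genes by RSEM) and those labelled WT 26753721 to 31745969. Mean fragment length was 275 to 317 bases in libraries labelled DKO and 230 to 258 bases in those labelled WT, so neither depth nor fragment length overlapped between the groups. All 10 channel genes passed the count filter, each with at least 556 counts in every library. Levels are given in TPM, an abundance scaled for transcript length and library depth, and tests were run on counts scaled between libraries by the TMM method. Abcc12 fell to 26.6 ± 0.978 TPM in libraries labelled DKO from 56.7 ± 1.54 TPM in those labelled WT (SD, n = 3 each; log2 fold change -1.02, edgeR adjusted p = 0.000307), and transcript was still counted in every library. Abcc5 was not lower, at 4.61 ± 0.200 against 3.66 ± 0.346 TPM (log2 fold change 0.56, edgeR adjusted p = 0.0225), so groups are named by their labels throughout. With the effective-length offset Abcc5 was at 0.38 (edgeR adjusted p = 0.0333). On log2(TPM + 1) it was at 0.27 and was not called (limma adjusted p = 0.0856). Markers of elongating spermatids, the cells that assemble the tail, summed to 111000 to 129000 TPM per library, with groups overlapping and 1 of 10 genes called, Gapdhs, which was lower in libraries labelled DKO (log2 fold change -0.43). Their median log2 fold change was -0.07. With each library's trend on transcript length and GC removed it was 0.16, and 2 of the 10 were called, against 3.25% of all tested genes. Round spermatid markers summed to 2730 to 2980 TPM, with groups overlapping and 0 of 10 genes called. Spermatocyte markers, from meiotic cells, had 2 of 10 genes called, both higher in libraries labelled DKO (Sycp3 at 0.67 and Hormad1 at 0.54 on the log2 scale). Their median log2 fold change was 0.32, with 8 of 10 positive values. It was 0.04, with 1 gene called, after each library's trend on transcript length and GC was removed. Their summed level overlapped at 1740 to 1810 against 1730 to 1840 TPM. The largest part of that sum was Hspa2, which lay the other way at 896 to 1030 against 1130 to 1200 TPM and was not called. Spermatogonia markers had 1 of 8 called, Ddx4 (0.41, higher), and summed to 401 to 458 against 348 to 369 TPM without overlap. Most of that sum was Ddx4 itself, at 318 to 369 against 248 to 280 TPM. The log2 fold changes of the other spermatogonia markers ran from -0.10 to 0.17. The part of these marker lists in the results below was not tested. Leydig cell markers had 3 of 8 genes called, all lower in libraries labelled DKO, and Sertoli cell markers 3 of 9, all lower. With the trends on length and GC removed, 2 of each list were called, with medians of -0.59 and -0.13. For comparison with these marker lists, 10.8% of all tested genes were called before removal, 5.75% higher and 5.10% lower. Of 6 epididymal markers, Lcn5 and Lcn8 were at 0 in every library, and the list summed to at most 8.03 TPM. In a whole tissue, fewer cells of a type and less RNA per cell cannot be told apart.

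Of the 10 channel genes, 1 was called at an adjusted p under 0.05 (edgeR quasi-likelihood test over 17110 genes), Catsperb, which was higher in libraries labelled DKO. Over all tested genes 10.8% were called, 5.75% higher and 5.10% lower, so the share among the channel genes was near that background. The median log2 fold change of the channel genes was -0.01 and that of all tested genes 0. At an unadjusted p under 0.05 in the same edgeR test there were 2 of the 10 channel genes, Catsperb and Kcnu1. Of all 17110 tested genes, 5428 reached this level. The remaining 9 genes changed by -0.15 to 0.26 on the log2 scale, and 0 of them were called. The groups did not overlap for 2 of the 10 genes in TMM-scaled CPM (Catsper3 and Catsperb), where 35.9% of all tested genes showed this, and for 3 in TPM (also Catsperg1), where 33.2% did. In the direction of Catsperb, DKO above WT, that background was 18.4% in CPM and 15.0% in TPM.

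**Figure D1:**
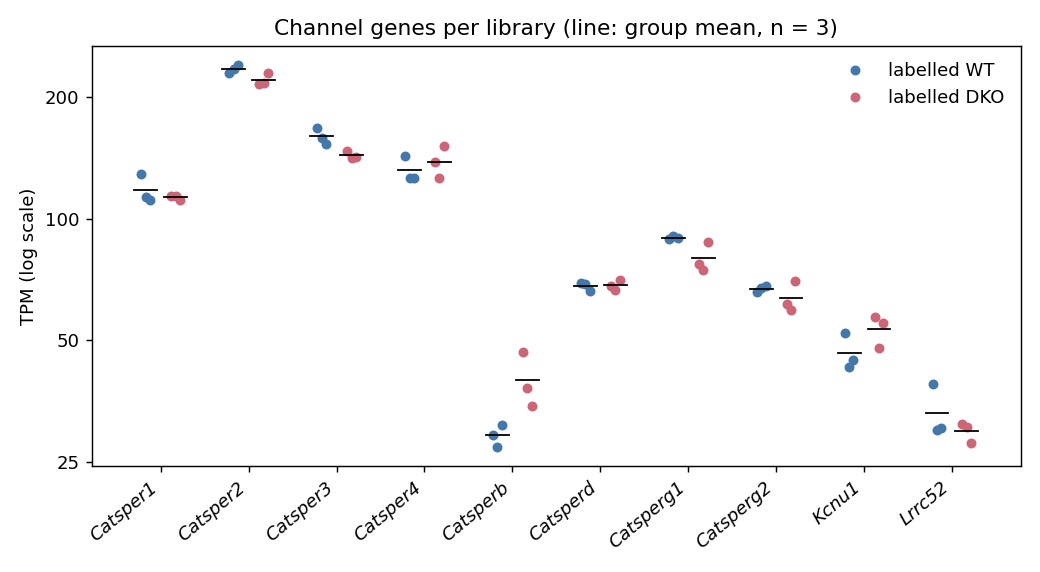
TPM on a log axis for each of the 10 channel genes, with 1 point per library (blue, labelled WT; red, labelled DKO) and a line at the mean of 3 libraries. The groups lie apart with DKO above WT for Catsperb, at 34.4 to 46.8 against 27.2 to 30.8 TPM.

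In TPM, whose length scaling allows levels to be compared between genes, the pore subunits stood highest. In libraries labelled WT the mean levels ran from Catsper2 (235 TPM) through Catsper3 (160), Catsper4 (132), Catsper1 (118), Catsperg1 (89.7), Catsperd (68.0), Catsperg2 (66.9), Kcnu1 (46.4) and Lrrc52 (33.0) to Catsperb (29.0). Neighbours in that order overlapped over the 3 libraries for Catsper4 and Catsper1, for Catsperd and Catsperg2, and for Lrrc52 and Catsperb. Catsper2 lay at percentile 95.3 of all tested genes and Catsperb at percentile 73.1. In libraries labelled DKO the order was the same except at its end, where Catsperb (39.7 TPM) stood above Lrrc52 (29.7 TPM) without overlap.

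RefSeq promoter sequences on GRCm38.p6 were found for 7 of the 10 genes, and the 250 bases before the start that the promoter table uses are shown for the genes of the highest and the lowest WT level, in lower case with CCAAT and TGACG in capitals on either strand (read as ATTGG and CGTCA on the reverse strand). Catsper2 is at chr2:121413793-121414042 on the minus strand and Catsperb at chr12:101404423-101404672 on the plus strand. The starts used lie inside the gene intervals given below, so the whole Catsper2 window and the last bases of the Catsperb window fall within those intervals.
Catsper2: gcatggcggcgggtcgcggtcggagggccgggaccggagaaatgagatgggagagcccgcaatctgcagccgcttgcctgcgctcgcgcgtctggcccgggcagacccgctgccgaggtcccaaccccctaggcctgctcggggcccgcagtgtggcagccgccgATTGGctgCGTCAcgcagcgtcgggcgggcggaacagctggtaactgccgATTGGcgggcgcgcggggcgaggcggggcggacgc
Catsperb: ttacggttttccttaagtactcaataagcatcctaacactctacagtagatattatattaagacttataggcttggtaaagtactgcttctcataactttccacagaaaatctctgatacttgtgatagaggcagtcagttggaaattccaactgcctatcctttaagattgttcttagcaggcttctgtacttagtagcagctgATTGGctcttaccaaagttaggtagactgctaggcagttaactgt

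The Catsper2 window had 74.8% GC and 35 CpG pairs, and the Catsperb window 38.0% GC and 1 CpG pair, against medians of 52.4% and 6 over 32851 promoter windows of the same length. Among the other genes, GC did not go with level: Catsper3 had 54.0% GC and 2 CpG pairs, Catsper4 45.2% and 1, and the first start of Catsperd 66.8% and 25. TGACG is the core of the cyclic AMP response element TGACGTCA, to which CREM, a transcription factor of round spermatids, binds. It was found once before Catsper2, 3 times before the first of 2 annotated starts of Catsperd and in no window of Catsper3, Catsper4, Catsperb, Catsperg1 or Lrrc52, and 17.8% of all windows held it. The full TGACGTCA, which contains TGACG, was in none of the 7 genes' windows and in 1.55% of all windows. CCAAT was in 33.8% of all windows, and TATAAA, found before 1 of the 2 starts of Catsperg1, in 12.4%.

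The pore genes were nearly level between the groups. Their summed TPM was 614, 597 and 633 in libraries labelled DKO (replicates 1 to 3) and 668, 633 and 630 in those labelled WT. The groups overlapped at their edge, where DKO replicate 3 and WT replicates 2 and 3 lay together.

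Catsper1, whose product carries a histidine-rich tail thought to sense pH, lies at chr19:5335615-5344281 (mm10). It had 114, 114 and 111 TPM in libraries labelled DKO and 129, 113 and 111 TPM in those labelled WT. WT replicate 1 was high and the other 5 libraries were close together. The log2 fold change was -0.02 with a 95% interval of -0.21 to 0.17 (edgeR adjusted p = 0.898).

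Catsper2, at chr2:121391633-121414598, had 215, 216 and 229 TPM in libraries labelled DKO and 229, 235 and 240 TPM in those labelled WT. DKO replicate 3 and WT replicate 1 met at 229 TPM, and the other DKO libraries lay below all WT libraries. In counts scaled by TMM the groups overlapped and the log2 fold change was -0.04 (95% interval -0.19 to 0.10; edgeR adjusted p = 0.686). Its exons share 18 bases with those of Pdia3 on the opposite strand, and the strand setting of the counting is not given in the sources used here, so a small part of its count is uncertain.

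Catsper3, at chr13:55784500-55824048, had 147, 141 and 142 TPM in libraries labelled DKO and 168, 158 and 153 TPM in those labelled WT. Every DKO library was below every WT library, a pattern found in 18.2% of all tested genes in TPM and, in this direction, in 17.5% in TMM-scaled CPM, where Catsper3 showed it too. The difference was small, with a log2 fold change of -0.14 (95% interval -0.30 to 0.02; edgeR adjusted p = 0.220), and was not called.

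Catsper4, at chr4:134211965-134227431, had 138, 126 and 151 TPM in libraries labelled DKO and 143, 126 and 126 TPM in those labelled WT. The groups overlapped, with DKO replicate 3 above every WT library. The log2 fold change was 0.10 (95% interval -0.09 to 0.30; edgeR adjusted p = 0.445).

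The deposited transcript length of a gene is an average weighted by transcript abundance, and so can shift with isoform use. Among the 10 genes it varied between libraries for Catsper3 and Catsper4. It was 1333 ± 2.76 bases against 1335 ± 1.74 bases for Catsper3 and 1727 ± 0.700 against 1725 ± 3.74 bases for Catsper4 (DKO first, then WT, as labelled; mean ± SD of 3 libraries). Neither difference passed the threshold (exact permutation tests, two-sided, p = 0.6 and p = 1, both 1 after adjustment over the 2 genes; 3 against 3 libraries allow no p below 0.1).

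Among the 4 auxiliary subunit genes of CatSper, Catsperb was called and Catsperd, Catsperg1 and Catsperg2 were not. Catsperb encodes a large single-pass subunit of the canopy and lies at chr12:101404645-101626009. It had 46.8, 38.0 and 34.4 TPM in libraries labelled DKO and 29.1, 27.2 and 30.8 TPM in those labelled WT. DKO replicate 1 was highest, and even DKO replicate 3, the lowest of its group, was above every WT library. In TMM-scaled CPM the means were 95.8 ± 17.1 against 67 ± 6.30 (SD, n = 3 each). This is a 1.43-fold higher level, with a log2 fold change of 0.52 (SE 0.119; 95% interval 0.25 to 0.78; edgeR adjusted p = 0.0322; higher in 3 of 3 libraries). Its level relative to Catsper1, as a ratio of TPM, was 0.412, 0.334 and 0.310 in libraries labelled DKO and 0.227, 0.240 and 0.277 in those labelled WT. This ratio was not among the planned results, uses the same Catsperb values and was not tested. The transcripts differ in GC, at 37.2% for Catsperb and 51.6% for Catsper1. The ratio of Catsper2 to Catsper1 overlapped between the groups.

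Catsperb was called in 2 of the fits that left out 1 library. The adjusted p was 0.123 without DKO replicate 1 (log2 fold change 0.36), 0.0653 without DKO replicate 2 (0.52), 0.118 without WT replicate 2 (0.43) and 0.101 without WT replicate 3 (0.56). Calls over all genes also fell in these fits, to 11, 655, 13 and 7 in the same order. Of those calls 0, 170, 0 and 0 were higher, so the loss was not particular to Catsperb. Mean fragment length was 317, 289 and 275 bases in DKO replicates 1 to 3, the same order as its TPM, and 258, 230 and 246 bases in WT replicates 1 to 3, where the library with the longest fragments was not the one with the highest TPM. With fragment length as a covariate, whose values do not overlap between the groups and so cannot be told apart from genotype, its log2 fold change was -0.035 (edgeR adjusted p = 0.999).

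Catsperd, whose product is needed for the channel to be assembled, lies at chr17:56626911-56664456. It had 68.2, 66.7 and 70.3 TPM in libraries labelled DKO and 69.2, 68.7 and 66.1 TPM in those labelled WT, the narrowest range among the auxiliary genes. The log2 fold change was 0.06 (95% interval -0.09 to 0.21; edgeR adjusted p = 0.563).

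Catsperg1 and Catsperg2 are near-identical copies on chromosome 7, at chr7:29181532-29215589 and chr7:29697217-29727049, both on the minus strand. In an alignment of their coding sequences from GENCODE M21 on GRCm38, 3169 of 3273 aligned bases were the same (96.8%), with 183 further columns in gaps. The longest identical run was 341 bases, longer than the mean fragment of any library, so fragments inside it cannot be given to either copy by sequence. A stretch of 60 coding bases with the average number of differences shows how close they are, with the differing bases in capitals; it starts at coding base 55 of each and lies at chr7:29210801-29210860 in Catsperg1 and chr7:29725356-29725415 in Catsperg2.
Catsperg1: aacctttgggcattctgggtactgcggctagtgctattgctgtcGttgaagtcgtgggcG
Catsperg2: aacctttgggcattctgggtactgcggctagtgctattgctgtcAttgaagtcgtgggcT

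Catsperg1 had 77.0, 74.7 and 87.3 TPM in libraries labelled DKO and 89.1, 90.7 and 89.4 TPM in those labelled WT. Catsperg2 had 61.4, 59.3 and 70.2 TPM against 65.6, 67.1 and 68.1 TPM. For both copies DKO replicate 3 was the highest of its group, and the WT libraries were within a few TPM of each other. The log2 fold changes were -0.11 for Catsperg1 and -0.01 for Catsperg2 (edgeR adjusted p = 0.301 and 0.938). Because fragments are shared, the counts of both were also added, which gave -0.06 on the log2 scale (SE 0.0704; edgeR adjusted p = 0.568).

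**Figure D2:**
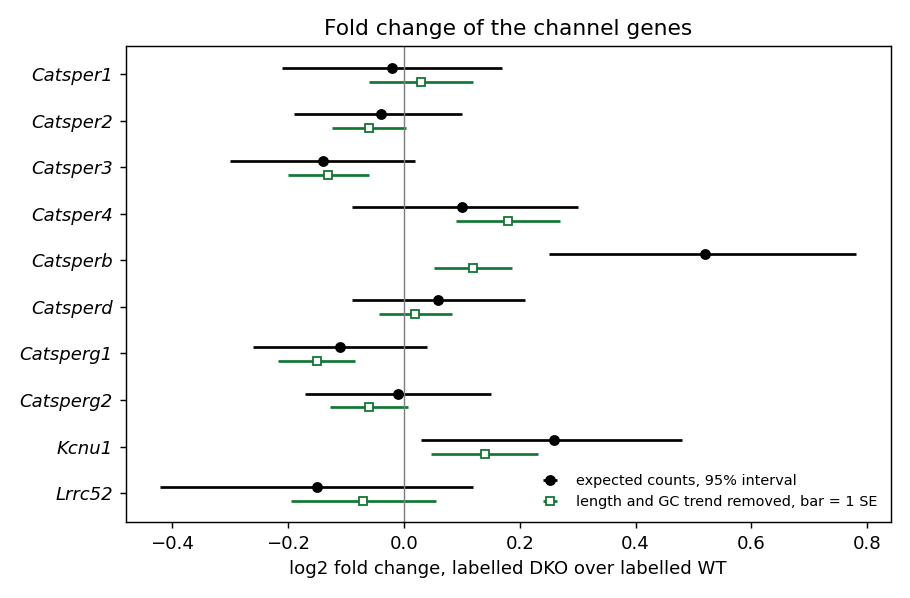
Log2 fold change of each channel gene, labelled DKO over labelled WT. Black points with 95% intervals are from expected counts, and green squares with bars of 1 SE are from the fit with each library's trend on transcript length and GC content removed. The interval of Catsperb, 0.25 to 0.78, lies above 0, and its square is at 0.12.

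Neither potassium channel gene was called. Kcnu1, at chr8:25848627-25937943, had 57.1, 47.8 and 55.0 TPM in libraries labelled DKO and 51.9, 42.8 and 44.5 TPM in those labelled WT. WT replicate 1 lay within the DKO range, so the groups overlapped. The difference was 0.26 on the log2 scale (SE 0.102; 95% interval 0.03 to 0.48, not adjusted for the number of genes; edgeR adjusted p = 0.109). Without WT replicate 1 it was 0.36 with an edgeR adjusted p of 0.0324.

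Lrrc52, at chr1:167445675-167466780, had 31, 30.5 and 27.8 TPM in libraries labelled DKO and 39.0, 29.9 and 30.2 TPM in those labelled WT. WT replicate 1 was the high library again, and the other 5 lay together. The log2 fold change was -0.15 (95% interval -0.42 to 0.12; edgeR adjusted p = 0.433). Of the 10 genes, 6 had their highest WT level in WT replicate 1: Catsper1, Catsper3, Catsper4, Catsperd, Kcnu1 and Lrrc52.

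The transcript of Catsperb had 37.2% GC (the share of G and C bases), the lowest of the 10, followed by Kcnu1 at 46.0%, while the other 8 lay between 48.3% and 52.3%. Catsperb and Kcnu1 were also the members with the largest positive fold changes. To show the difference, 90 coding bases lying within 1 exon and with a GC share close to that of the whole coding sequence are given for Catsperb (chr12:101415238-101415327, plus strand), Kcnu1 (chr8:25849680-25849769, plus strand) and Catsper4 (chr4:134215192-134215281, minus strand, the member with the highest transcript GC), with G and C in capitals. These stretches hold 34, 42 and 45 capitals.
Catsperb: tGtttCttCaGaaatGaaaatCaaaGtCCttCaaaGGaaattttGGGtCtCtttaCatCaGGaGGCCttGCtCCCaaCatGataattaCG
Kcnu1: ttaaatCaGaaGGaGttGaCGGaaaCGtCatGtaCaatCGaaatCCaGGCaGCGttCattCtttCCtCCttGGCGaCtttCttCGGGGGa
Catsper4: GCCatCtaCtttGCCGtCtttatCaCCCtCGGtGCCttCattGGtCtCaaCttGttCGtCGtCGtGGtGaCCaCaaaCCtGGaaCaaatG

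Across 16820 tested genes with a known composition, which are not independent replicates and share the same 6 libraries, log2 fold change fell with transcript GC (Spearman's rho -0.58). In the 10% of genes with the lowest GC, where Catsperb lies, the median log2 fold change was 0.29 (quartiles 0.15 and 0.41), with 23.7% of genes called higher and 0.535% called lower. In the 10% with the highest GC the median was -0.23, with 0% called higher and 13.7% called lower. Catsperb, at 0.52, was above the upper quartile of its class, and Kcnu1, at 0.26, was just above that of its own (0.23). With the smooth trend of each library on transcript length and GC removed, Catsperb was at 0.12 (SE 0.0676; edgeR adjusted p = 0.318) and Kcnu1 at 0.14 (edgeR adjusted p = 0.400). In that fit 0 of the 10 genes were called, against 3.25% of all tested genes. Removing the trend on length alone left Catsperb at 0.49 (edgeR adjusted p = 0.0323).

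**Figure D3:**
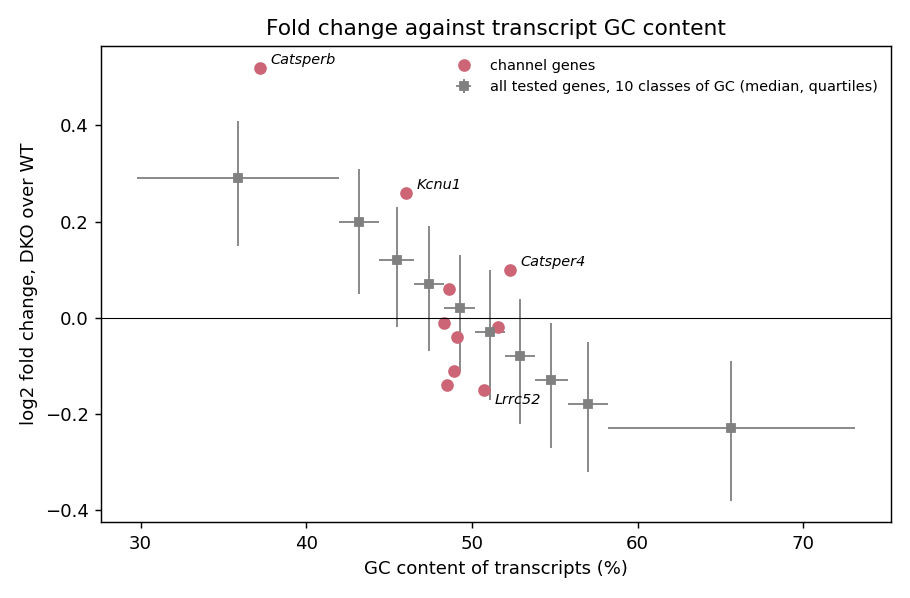
Log2 fold change (labelled DKO over labelled WT) against the GC content of transcripts in percent. Grey squares are medians of 10 equal classes of tested genes with quartiles (vertical bars) and the GC range of each class (horizontal bars), and red points are the 10 channel genes. Medians run from 0.29 in the lowest class to -0.23 in the highest, and Catsperb lies at the low-GC end.

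The other subunits of CatSper gave calls in both directions. Of 8 listed genes, 6 were matched to the files, 4 by RefSeq accession under older symbols, and 4 of these 6 were called, 2 higher and 2 lower, against 10.8% of all tested genes. Whether that share differs from that of the 10 genes above was not tested. The list was chosen with earlier results of these data known, so its share is descriptive only. Tex40 (Catsperz), which encodes a small cytosolic subunit that helps to order the channel in rows along the tail, had 1040, 1380 and 1010 TPM in libraries labelled DKO and 1650, 1730 and 1680 TPM in those labelled WT. All DKO libraries lay below the WT libraries, which gave -0.61 on the log2 scale (SE 0.123; edgeR adjusted p = 0.0263). Its binding partner Efcab9, a calcium sensor of the channel, did not pass the threshold, at 370, 292 and 275 against 267, 212 and 235 TPM (log2 fold change 0.33; edgeR adjusted p = 0.0768). In TPM the Efcab9 groups were apart, with DKO above WT, as in 15.0% of all tested genes. In TMM-scaled CPM they overlapped. For Tex40, DKO lay below WT on both scales.

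Als2cr11 (C2cd6), needed to bring the channel into the tail, rose from 151, 131 and 150 TPM in libraries labelled WT to 220, 184 and 187 TPM in those labelled DKO (log2 fold change 0.50; edgeR adjusted p = 0.0263). Slco6c1, a transporter-like protein found with the channel, rose from 105 ± 3.03 to 124 ± 4.84 TPM (SD, n = 3 each; log2 fold change 0.29; edgeR adjusted p = 0.0358). BC048609 (Tmem262), a small membrane subunit, fell from 114 ± 11.2 to 88.6 ± 10.2 TPM (log2 fold change -0.51; edgeR adjusted p = 0.0358). With the effective-length offset BC048609 was at -0.31 and was not called (edgeR adjusted p = 0.0955). In that fit 3 of the 6 genes were called. Gm16432 (Catspere2) had 10.5 ± 1.15 TPM in libraries labelled DKO and 8.94 ± 0.211 TPM in those labelled WT and was not called (edgeR adjusted p = 0.0884). The 2 genes called higher had low GC, 42.1% for Als2cr11 and 37.1% for Slco6c1. The 2 called lower had short transcripts of 781 bases (Tex40) and 537 bases (BC048609) with 53.1% and 50.8% GC. With the trends on length and GC removed, 0 of the 6 were called; Tex40 was at -0.42 and Als2cr11 at 0.28 (edgeR adjusted p = 0.0626 and 0.0634), and Slco6c1 was at -0.09.

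Genes that regulate CatSper or carry it through the cell gave 2 calls among 10, against 10.8% of all tested genes. Pkdrej, a polycystin-like receptor of sperm, rose (log2 fold change 0.25; edgeR adjusted p = 0.0404), and Calm3, which encodes calmodulin, fell from 698 ± 49.7 to 557 ± 54.2 TPM (SD, n = 3 each; log2 fold change -0.27; edgeR adjusted p = 0.0498). Neither was called with the length and GC trends removed (0.21 and -0.09; edgeR adjusted p = 0.0830 and 0.483) or with the effective-length offset (edgeR adjusted p = 0.0531 and 0.0512). Calm2, another calmodulin gene and the most abundant of the list at 824 against 812 TPM, had a log2 fold change of 0.03 (edgeR adjusted p = 0.760). Of relatives and partners of the BK potassium channel, 8 of 10 passed the count filter and 0 were called in this fit. Kcnmb4, a BK beta subunit, was the most abundant at 165 TPM in both groups, while Kcnmb3 had 4.53 against 3.96 TPM. Kcnma1, the BK channel itself and the closest relative of Kcnu1, had 1.22 to 1.63 TPM per library.

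CatSper and KCNU1 both respond to pH, and 2 of 14 tested genes of sperm pH and bicarbonate were called, against 10.8% of all tested genes. Both were higher, against 5.75% called higher of all tested genes. The median log2 fold change of the list was -0.08, with 6 of 14 positive values. Slc9c1, the sperm sodium-proton exchanger, had 75.4, 67.2 and 62.5 TPM in libraries labelled DKO and 52.5, 48.8 and 57.4 TPM in those labelled WT. The groups lay apart, with a log2 fold change of 0.44 (edgeR adjusted p = 0.0333). Cftr, an anion channel, rose from 6.96 ± 0.300 to 8.84 ± 0.835 TPM (SD, n = 3 each; log2 fold change 0.42; edgeR adjusted p = 0.0320). Both have low transcript GC (39.3% and 41.3%) and were at 0.12 and 0.15 with the trends removed (edgeR adjusted p = 0.353 and 0.206). Adcy10, the bicarbonate-activated adenylyl cyclase, had 117 against 101 TPM and an edgeR adjusted p of 0.0558, and Car2, a carbonic anhydrase, had 136 against 146 TPM and an edgeR adjusted p of 0.567.

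Of 24 tested calcium channels, pumps and exchangers 1 was called, against 10.8% of all tested genes. The called gene was Atp2c1, a calcium pump of the Golgi (log2 fold change 0.34, edgeR adjusted p = 0.0360). Its groups overlapped in TPM, and it was not called with the length and GC trends removed (0.15; edgeR adjusted p = 0.289) or with the effective-length offset (0.23; edgeR adjusted p = 0.0807). Stim1 and Atp2a2, the most abundant of that list, were at -0.02 and 0.05 (edgeR adjusted p = 0.839 and 0.672). From the list of sodium pump subunits and other potassium channels, Atp1a4, the sperm isoform of the pump, had 434 ± 14.1 against 368 ± 23.6 TPM (SD, n = 3 each) and just missed the threshold (log2 fold change 0.30; edgeR adjusted p = 0.0517). Atp1b3, a beta subunit, had 368 against 342 TPM (edgeR adjusted p = 0.229).

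In the capacitation list 6 of 16 genes were called higher in libraries labelled DKO and 0 lower, against 5.75% and 5.10% of all tested genes, with a median log2 fold change of 0.13. This list was chosen with earlier results of these data known, so these shares only describe it. Spa17, a sperm protein of the fibrous sheath, had 3050, 2390 and 2770 TPM in libraries labelled DKO and 1960, 1770 and 1970 TPM in those labelled WT (log2 fold change 0.44; edgeR adjusted p = 0.0252). Akap3, an anchor for protein kinase A, had 895, 778 and 720 TPM against 649, 542 and 549 TPM (log2 fold change 0.52; edgeR adjusted p = 0.0299). The groups lay apart for both genes. Akap4, the main fibrous sheath anchor, and Cabs1, a calcium-binding protein of spermatids, rose with log2 fold changes of 0.35 and 0.42 (edgeR adjusted p = 0.0341 and 0.0377). Prkar2a, a regulatory subunit of protein kinase A, and Plcz1, the sperm factor that activates the egg, were the other genes called. Ropn1l, with Spa17 the most abundant of the list, had 2410 against 2280 TPM and was not called (edgeR adjusted p = 0.646). With the trends on length and GC removed Spa17 and Akap3 were still called, both at 0.51 (edgeR adjusted p = 0.0229 and 0.0465), and Akap4, Cabs1, Prkar2a and Plcz1 were not (0.23, 0.24, 0.29 and 0.18). Over all 7 lists 16 genes were called, and 0 were called when DKO replicate 1, WT replicate 2 or WT replicate 3 was left out. Over all genes those fits called 11, 13 and 7.

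**Figure D4:**
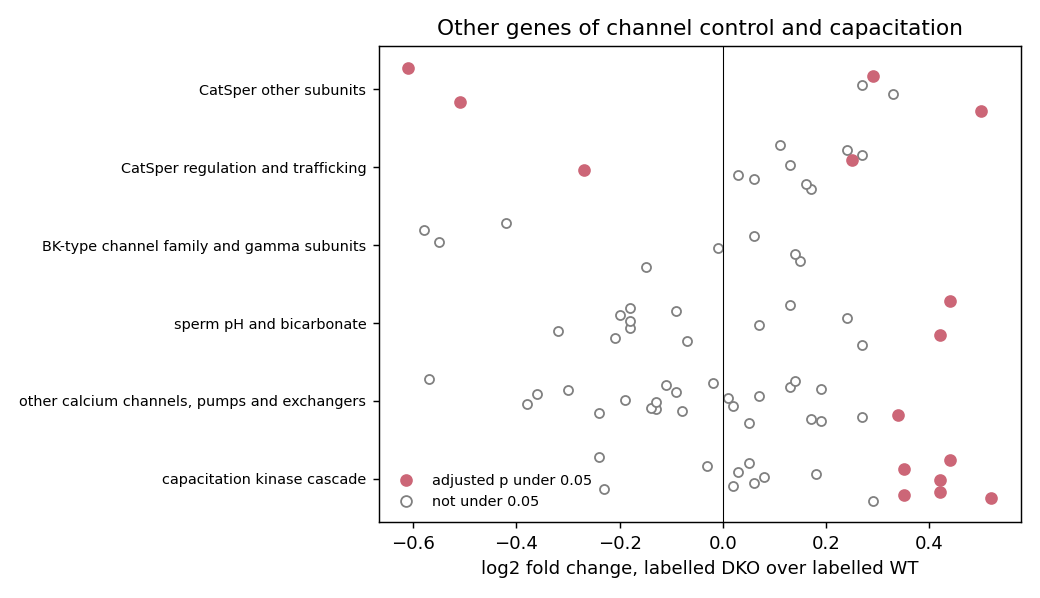
Log2 fold change (labelled DKO over labelled WT) of each tested gene of 6 lists, with filled points for an edgeR adjusted p under 0.05. Calls lie on both sides of 0 for the other CatSper subunits and only above 0 for the 6 of the capacitation list.

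**Figure D5:**
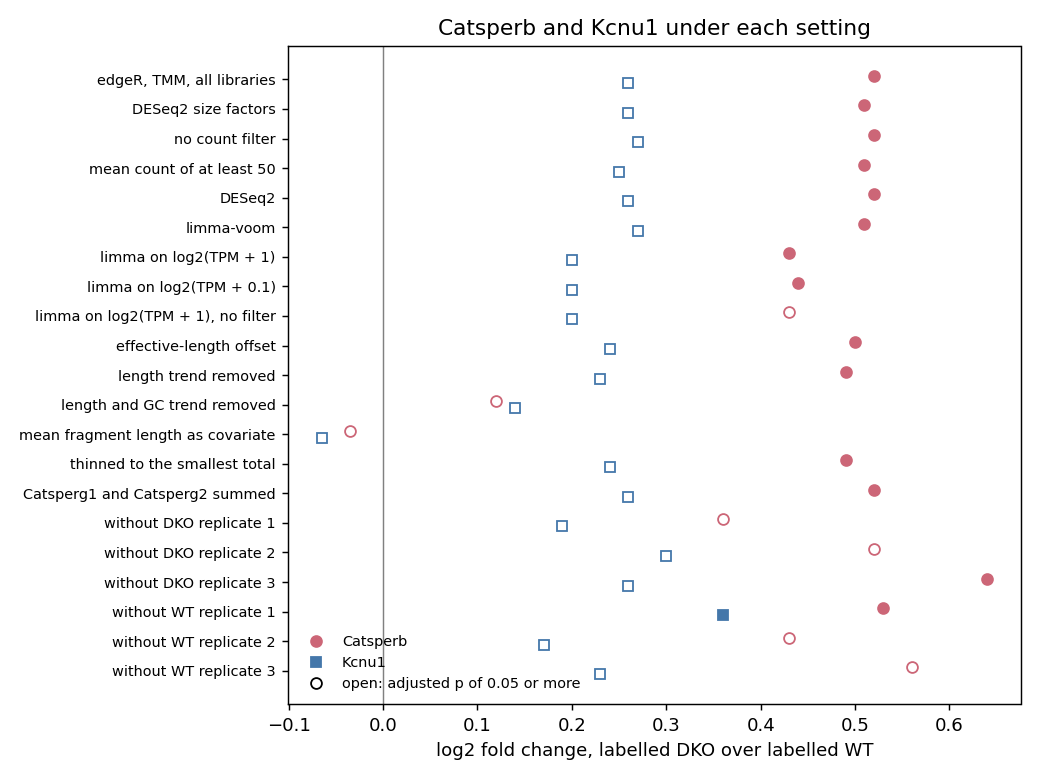
Log2 fold change of Catsperb (red circles) and Kcnu1 (blue squares) under each setting; open symbols did not pass an adjusted p of 0.05. Catsperb lies between 0.36 and 0.64 in the fits that leave out a library, at 0.12 with the length and GC trend removed and at -0.035 with fragment length as a covariate.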

How the data were processed

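The authors deposited 1 gene-level RSEM table per library, per the file headers, with expected counts, TPM, and lengths; STAR 2.7.0f, RSEM 1.2.31, DESeq2 1.12.3 and build mm10 are named in the submitters' processing notes. The deposited expected counts were 93.2% whole (tolerance 0), and the deposited TPM values, per the file headers, stand beside length and effective length. Strand setting and filters are not given in the sources used here. Counts were rounded, filtered by filterByExpr, scaled by TMM and tested with edgeR 4.0.16 (glmQLFit, glmQLFTest; genotype only), Benjamini-Hochberg adjusted over 17110 genes. SEs are the fold change over the root of F. Intervals use the test's 11.4 degrees of freedom. The series' design text speaks of 3 mice, and each library was treated as 1 mouse. Mean fragment length was taken from genes longer than 3000 bases, as the median gap between the deposited length and effective length, plus 1. GC content came from GENCODE M21 transcripts sharing RefSeq accessions (97.7% of genes). Coordinates are from the RefSeq table of GRCm38.p6, the build also called mm10. In simulated counts on 16989 genes, 73% of genes changed by 0.5 and 100% changed by 1 on the log2 scale were recovered, with 14 false calls. The simulated counts held no trend on transcript length, GC or fragment length, so these shares cannot show the recovery in the real libraries.

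The members and lists were chosen with earlier results of these data known. Genes are named by rule: both targeted genes, all members, all matched CatSper subunits, and in each other list the up to 4 called genes with the smallest p and the 2 with the highest TPM; Kcnma1, Prkar2a and Plcz1 were added after their values were seen, and 1 gene the rule selects is not reported here. Alternatives were DESeq2 size factors, no filter, a mean count of 50, DESeq2 1.42.0, limma-voom and limma 3.58.1 on log2(TPM + 1) and log2(TPM + 0.1) for genes of at least 1 TPM in 3 libraries or with no filter, an effective-length offset, removal of the length trend (mgcv 1.9.3), fragment length as a covariate, thinning, Catsperg1 plus Catsperg2, and leaving out each library; removal of the length and GC trend was chosen after seeing the data.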

Additional observations from a re-analysis of the deposited data

How the results depend on the processing

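No paired analysis was possible because replicate numbers follow accession order and carry no pairing. Of the 10 genes, 1 was called with edgeR, 0 were called with limma on log2(TPM + 1) without a filter, with the length and GC trend removed, or with fragment length as a covariate, and 0 to 2 (all higher; 0 to 0 lower) when a library was left out. Over all genes 1856 were called (984 higher, 872 lower). DESeq2 called 2895 (1658 higher), log2(TPM + 1) 1342 with 548 higher and 794 lower, log2(TPM + 0.1) 1317 with 537 higher, and log2(TPM + 1) without a filter 2 (0 higher, 2 lower). Removing the length and GC trend left 556 (325 higher, 231 lower). The covariate left 1 (0 higher, 1 lower), with 545 at an unadjusted p under 0.05. Leaving out a library gave 7 to 3029 calls (0 to 1903 higher, 7 to 1126 lower), with 7 without WT replicate 3, 11 without DKO replicate 1, 13 without WT replicate 2 and 655 without DKO replicate 2.

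Of the pathway genes 16 were called (12 higher, 4 lower). Without the filter on TPM 0 were called (0 higher, 0 lower), as with the covariate (0 higher, 0 lower). With the length and GC trend removed 4 were called (3 higher, 1 lower), and with the effective-length offset 12 (10 higher, 2 lower). Without a library 0 to 25 were called (0 to 18 higher, 0 to 7 lower). Members that changed sign were Catsper1 (0.025 with the length and GC trend removed, 0.018 without DKO replicate 3, 0.062 without WT replicate 1), Catsperg2 (0.022 with the covariate, 0.0067 without DKO replicate 2, 0.006 without WT replicate 3), and, with the covariate, Catsper4 (-0.0031), Catsperb (-0.035), Catsperd (-0.016) and Kcnu1 (-0.065). Without a library the length differences ranged from -2.23 to 0.27 bases for Catsper3 and from -0.40 to 2.83 bases for Catsper4. The cause of these changes was not tested. The values without a library ran from -0.084 (WT replicate 2) to 0.062 for Catsper1 and from -0.054 (DKO replicate 3) to 0.0067 for Catsperg2. Each member had at least 556 counts per library, and the biological coefficient of variation over all genes was 9.34%.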

Other observations

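The ratio of the potassium channel genes differed between the groups in TPM, though neither gene was called. Kcnu1 over Lrrc52, in TPM, was 1.84, 1.57 and 1.98 in libraries labelled DKO (replicates 1 to 3) and 1.33, 1.43 and 1.47 in those labelled WT, without overlap. The ratio was chosen after its values were seen and was not tested. Among single genes, 33.2% of all tested genes did not overlap in TPM. The transcripts differ in length and GC (3531 bases and 46.0% for Kcnu1, 1137 bases and 50.7% for Lrrc52). Their log2 fold changes were 0.26 and -0.15, and 0.14 and -0.07 with the length and GC trend removed.

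Catsperg1 took 52.8, 53.0 and 52.7% of the counts of Catsperg1 and Catsperg2 together in libraries labelled DKO and 54.8, 54.7 and 54.0% in those labelled WT (52.8 ± 0.156 against 54.5 ± 0.451, SD, n = 3 each). The exact two-sided permutation p was 0.1, the smallest that 3 against 3 libraries can give. This share was also chosen after its values were seen, and it depends on how shared fragments were divided between the copies.

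Kcnmb4, a BK beta subunit whose transcript has 63.2% GC, had a log2 fold change of -0.01 from counts (edgeR adjusted p = 0.938) and 0.33 with the length and GC trend removed (edgeR adjusted p = 0.0254).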
